A study of Mus musculus with 4 samples.

Results

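Cell cycle and DNA replication genes were examined in RNA-seq libraries of sorted cells from the main olfactory epithelium (MOE), the sheet of sensory neurons, supporting cells and stem cells that lines the back of the nasal cavity. A list of 41 genes was chosen by name from the 24421 genes with deposited values. It holds 15 genes of S phase (licensing and unwinding of origins, the replication clamp, nucleotide supply, and the cyclins of S phase entry) and 26 genes of G2 and mitosis (cyclins, kinases, checkpoint, centromere, and spindle proteins). The rule names the genes and uses no measured value, although it was written with earlier results of these data known.

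Cells were sorted by GFP from the TAAR enhancer 1-GFP line and by tdTomato from the TAAR enhancer 2-tdTomato line, which gave 4 libraries, with 1 for the reporter-positive and 1 for the reporter-negative cells in each line. The labels give the strain of both lines as C57BL/6, while the study's reporting summary describes its mouse lines as of mixed background. Both carry a PiggyBac transgene in which a TAAR enhancer, an element near the genes for trace amine-associated receptors, was placed before the Hsp68 minimal promoter and a fluorescent reporter. All groups thus carried a transgene, the negative cells came from the same kind of mouse as the positive cells, and only 1 founder line was kept for each transgene. The labels describe adult mice, while the study's reporting summary lists young postnatal mice. With a single library in each group, no difference below could be checked in replicates, and none was tested.

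Dividing cells load the MCM helicase onto origins in G1, copy their DNA in S phase, and then build a spindle that separates the copies in mitosis. Many of the genes for these steps are transcribed only during part of the cycle, S phase genes largely under E2F factors and mitosis genes through CCAAT boxes and the cell cycle homology region (CHR) that the MuvB complexes bind. In the olfactory epithelium globose basal cells divide throughout life and give rise to olfactory sensory neurons (OSNs), horizontal basal cells are largely quiescent, and mature OSNs and multiciliated cells do not divide.

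Promoters of the members with the highest mean levels in each class are shown first, because S phase and mitosis members differed in the letters that they carry. The RefSeq promoter table of GRCm38.p6 matched 33 of the 41 members with 34 promoters, since *Mcm7* has 2, and 8 members were not matched. Each window in the table runs from 250 bases before to 50 bases after a transcript start and is printed here up to base 30 of the transcript, from 5′ to 3′ on the strand of the gene. Capitals mark matches to CCAAT, to the CHR element TTTGAA or TTCGAA, or to the E2F site TTTNGCGC on either strand. *Pcna*, which encodes the replication clamp, is at chr2:132253151-132253430 on the minus strand. *Mcm7*, a subunit of the helicase, has starts within chr5:138171237-138171516 and chr5:138171854-138172133 on the minus strand. *Top2a*, which encodes the topoisomerase that untangles sister chromatids, is at chr11:99024160-99024439 on the minus strand, and *Ube2c*, which encodes an E2 enzyme of the anaphase-promoting complex, is at chr2:164769679-164769958 on the plus strand.
*Pcna*: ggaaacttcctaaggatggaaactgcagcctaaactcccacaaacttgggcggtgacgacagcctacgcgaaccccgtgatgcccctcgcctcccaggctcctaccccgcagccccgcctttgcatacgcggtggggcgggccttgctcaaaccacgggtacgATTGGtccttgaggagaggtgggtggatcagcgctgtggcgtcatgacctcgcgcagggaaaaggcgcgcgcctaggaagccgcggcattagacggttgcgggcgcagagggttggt
*Mcm7* downstream start: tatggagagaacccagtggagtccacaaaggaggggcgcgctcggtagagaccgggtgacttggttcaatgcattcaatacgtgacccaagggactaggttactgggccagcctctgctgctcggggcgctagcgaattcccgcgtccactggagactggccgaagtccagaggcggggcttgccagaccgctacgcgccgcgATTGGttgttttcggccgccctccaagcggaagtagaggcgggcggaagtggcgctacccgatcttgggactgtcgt
*Mcm7* upstream start: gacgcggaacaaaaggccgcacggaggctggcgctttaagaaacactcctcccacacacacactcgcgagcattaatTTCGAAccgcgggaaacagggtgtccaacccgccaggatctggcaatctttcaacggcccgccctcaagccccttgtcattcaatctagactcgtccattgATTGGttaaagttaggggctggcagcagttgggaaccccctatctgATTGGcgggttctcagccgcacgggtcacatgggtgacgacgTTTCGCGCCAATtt
*Top2a*: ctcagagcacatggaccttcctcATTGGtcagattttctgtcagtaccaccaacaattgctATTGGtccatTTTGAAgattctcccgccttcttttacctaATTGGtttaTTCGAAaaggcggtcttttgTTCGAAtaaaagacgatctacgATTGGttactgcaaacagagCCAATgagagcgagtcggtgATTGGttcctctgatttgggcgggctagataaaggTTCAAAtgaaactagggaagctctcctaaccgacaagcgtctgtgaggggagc
*Ube2c*: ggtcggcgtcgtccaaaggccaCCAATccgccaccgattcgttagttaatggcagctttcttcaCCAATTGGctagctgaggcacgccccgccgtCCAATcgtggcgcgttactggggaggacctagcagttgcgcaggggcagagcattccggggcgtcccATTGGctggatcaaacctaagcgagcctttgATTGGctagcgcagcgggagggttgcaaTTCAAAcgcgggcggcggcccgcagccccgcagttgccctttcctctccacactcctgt
The *Pcna* window held 1 CCAAT box and neither of the other elements. The upstream *Mcm7* window held 3 CCAAT boxes, 1 CHR element, and 1 E2F site, and its E2F site overlaps a CCAAT box by 1 base. The *Top2a* window held 6 CCAAT boxes and 4 CHR elements, and the *Ube2c* window held 6 CCAAT boxes, of which a pair overlaps, and 1 CHR element.

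Across the mitosis members, 19 of 21 promoters held a CCAAT box and 17 held a CHR element, and the same 17 (81.0%) held both. Of the 13 promoters of S phase members, 9 held a CCAAT box and 2 (15.4%) held both elements. Among all 32851 promoters of the table, 37.4% held a CCAAT box, 19.2% held a CHR element, and 7.52% held both. The E2F site was found in 5 of 13 S phase promoters, in 1 of 21 mitosis promoters, that of *Cdk1*, and in 1.38% of all promoters. The TATA box TATAAA was in none of the 34 member promoters and in 13.6% of all promoters. These matches are a description of letters in short windows, and a window without a match says nothing about the factor.

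Values are TPM, transcript levels that are scaled for gene length so that different genes can be compared and that give every library the same total of 1000000. The depth of sequencing is therefore unknown, and a few very abundant genes lower the values of all others. In GFP-positive cells 31.5% of the total came from the 10 highest genes, against between 5.72% and 9.44% in the other libraries. Genes with a mean of at least 1 TPM over the libraries were compared, 15760 in all, and each of the 41 members passed this limit. Differences are on the log2(TPM + 1) scale, on which changes of low genes appear too small, and a difference of at least 2-fold on this scale was counted as a call. The olfactory marker gene *Omp* was at 9584, 1108, 10108, and 4427 TPM in GFP-negative, GFP-positive, tdTomato-negative, and tdTomato-positive cells. Values of a gene are given in this order of libraries throughout.

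Cell cycle genes were at modest levels in all libraries and lowest in tdTomato-positive cells. The median level of the 41 members was 19.0, 7.83, 12.6, and 2.03 TPM. There were 30, 16, 21, and 5 members at 10 TPM or more. Of the 41 members, 34 had their lowest value in tdTomato-positive cells, as had 15.8% of all genes compared, and 33 had their highest value in GFP-negative cells, as had 30.3% of all genes. In 31 members (75.6%) both reporter-negative libraries were above both reporter-positive libraries, which was the case for 43.5% of all genes. Fewer dividing cells and less of these RNAs in each cell cannot be told apart in such bulk libraries.

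**Figure D1:**
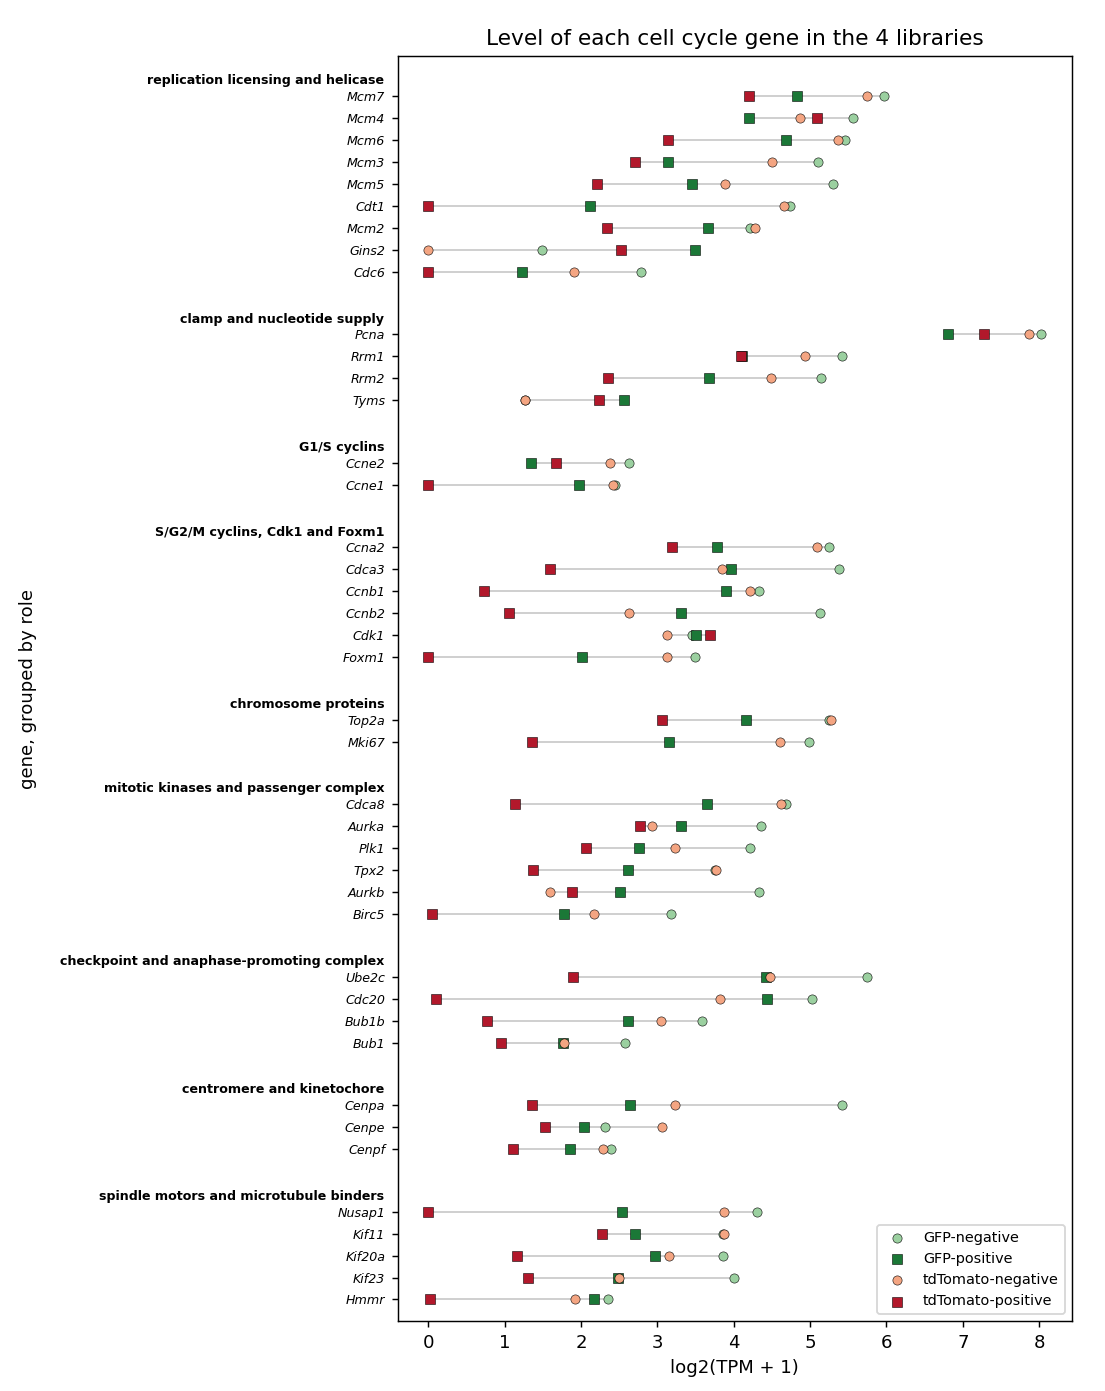
Level of each of the 41 members on the log2(TPM + 1) scale (x axis), 1 point for each library, with genes grouped by role (y axis) and a grey line from the lowest to the highest library. Dark red squares (tdTomato-positive cells) are the lowest point for 34 members, and *Gins2*, *Tyms*, and *Cdk1* have both squares to the right of both circles.

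In the TAAR enhancer 1-GFP line, 27 of the 41 members (65.9%) were at least 2-fold lower with GFP than without it, and 2 were at least 2-fold higher. Of all genes compared in this line, 44.2% were at least 2-fold lower and 12.9% were at least 2-fold higher. The median log2 fold change was -1.22 for the members and -0.85 for all genes, which leaves a difference of -0.37. After the all-gene median was taken off each value, 3 of the 41 members were at least 2-fold lower, against 19.1% of all genes. Most of the difference in this line was thus shared with genes in general.

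In the TAAR enhancer 2-tdTomato line, 31 members (75.6%) were at least 2-fold lower in tdTomato-positive cells and 1 was at least 2-fold higher, against 21.8% and 15.8% of all genes. Here the median log2 fold change was -1.90 for the members and -0.20 for all genes, a difference of -1.70. With the all-gene median taken off, 28 of the 41 members were at least 2-fold lower, against 18.2% of all genes. A 4-fold lower level was reached by 16 members in this line, against 11.3% of all genes, and by 2 members in the TAAR enhancer 1-GFP line, against 16.9% of all genes. Of the 31 lower members, 5 were listed at 0 in tdTomato-positive cells, and 26 of the 35 members above 0 in both libraries were lower. *Cdc6*, *Cdt1*, *Ccne1*, *Foxm1*, and *Nusap1* were these 5 members, and 9.82% of all genes compared were also listed at 0 in this library, so a 0 can be a failed estimate.

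Both lines together had 21 members (51.2%) that were at least 2-fold lower in each, against 14.5% of all genes. The 2 comparisons share no library. A further 6 members (14.6%) passed 2-fold in the TAAR enhancer 1-GFP line alone, 10 (24.4%) in the TAAR enhancer 2-tdTomato line alone, and 4 in neither. Of all genes, 44.2% passed this limit with GFP and 21.8% with tdTomato, and both shares include the 14.5% above. More of all genes were thus lower with GFP alone than with tdTomato alone, the reverse of the members. At any size, 36 of the 41 members were lower in both lines and 3 were higher in both, against 52.0% and 17.2% of all genes, and *Mcm4* and *Aurkb* went in opposite directions. When each line was set against the negative library of the other, *Mcm4* was lower in both (-0.67 and -0.47), while *Aurkb* still went in opposite directions but with the signs exchanged (0.92 and -2.45). Relative to the all-gene median of each line, 37 of 41 members were lower in the TAAR enhancer 2-tdTomato line than in the TAAR enhancer 1-GFP line. On the scale as deposited 26 were. The share of all genes with this order was not counted, so these counts cannot be called unusual.

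**Figure D2:**
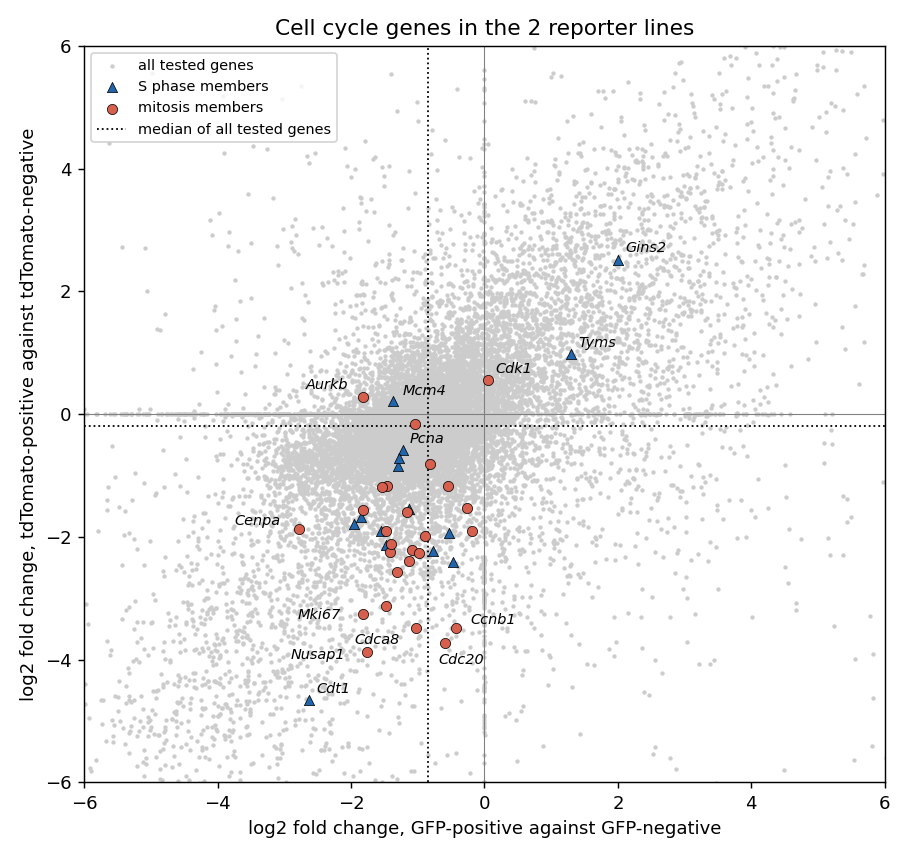
Log2 fold change on the log2(TPM + 1) scale in the TAAR enhancer 1-GFP line (x axis) and the TAAR enhancer 2-tdTomato line (y axis) for S phase members (triangles), mitosis members (circles), and all genes compared (grey). Dotted lines mark the all-gene medians of -0.85 and -0.20, members gather below the horizontal dotted line, and points of genes listed at 0 in a library (such as *Cdt1*, *Nusap1*, and *Gins2*) depend on the pseudocount. Genes beyond the axes are not drawn.

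The reporter-negative libraries of the lines were not alike either. In tdTomato-negative cells 11 members were at least 2-fold lower than in GFP-negative cells and none was at least 2-fold higher, while 10.2% of all genes were lower and 10.5% were higher. The median difference was -0.43 for the members and 0.04 for all genes. *Aurkb*, at 19.1 and 2.03 TPM in GFP-negative and tdTomato-negative cells, *Ccnb2*, at 34.0 and 5.15 TPM, and *Cenpa*, at 41.9 and 8.40 TPM, differed most. This comparison shares a library with each of the others, so a high GFP-negative value of these genes also enters the comparison with GFP-positive cells. Against tdTomato-negative cells, *Ccnb2*, *Cdca3*, *Aurka*, *Aurkb*, *Cdc20*, and *Hmmr* were higher, not lower, in GFP-positive cells.

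**Figure D3:**
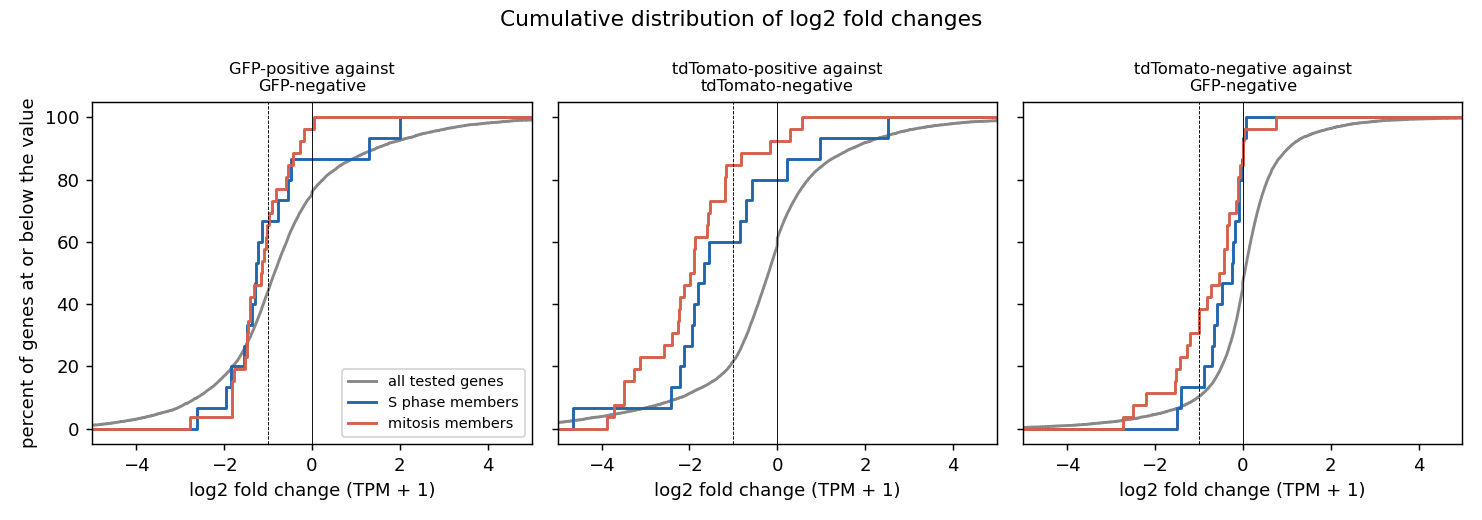
Percent of genes (y axis) at or below each log2 fold change (x axis) for S phase members, mitosis members, and all genes compared, in each line and between the negative libraries. The dashed line marks a 2-fold lower level, which 65.9%, 75.6%, and 26.8% of the 41 members reached from left to right.

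Among the genes of replication licensing and the helicase, 6 of 9 (66.7%) were at least 2-fold lower in GFP-positive cells and 7 of 9 (77.8%) in tdTomato-positive cells, where 44.2% and 21.8% of all genes were. *Mcm2* was at 17.5, 11.7, 18.3, and 4.07 TPM, *Mcm3* at 33.3, 7.83, 21.7, and 5.55 TPM, and *Mcm5* at 38.4, 9.93, 13.8, and 3.64 TPM. *Mcm6* was at 43.0, 24.8, 40.3, and 7.84 TPM and *Mcm7* at 61.5, 27.4, 52.7, and 17.3 TPM. These 5 subunits of the hexameric MCM helicase were lowest in tdTomato-positive cells, with log2 fold changes from -2.23 (*Mcm6*) to -1.55 (*Mcm7*) in that line. *Mcm4*, the remaining measured subunit, was at 46.3, 17.4, 28.3, and 33.0 TPM. Its log2 fold change was -1.36 with GFP and 0.22 with tdTomato, so that in tdTomato-positive cells *Mcm4* was the most abundant member after *Pcna*. Of the reference sequence of *Mcm7*, 18.1% of 50-base windows also occur in another gene, so reads may have been shared.

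The factors that load the helicase were lower in both lines as well. *Cdt1*, which brings the helicase to origins, was at 25.6, 3.32, and 24.2 TPM in the first 3 libraries and listed at 0 in tdTomato-positive cells. *Cdc6*, its partner at origins, was at 5.86, 1.33, and 2.74 TPM and also listed at 0 there.

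*Gins2*, a subunit of the GINS complex that activates the helicase, had the opposite pattern. It was at 1.81, 10.2, 0, and 4.73 TPM, the highest value being in GFP-positive cells, and its log2 fold change was 2.00 in the TAAR enhancer 1-GFP line. The gene lies on chromosome 8 (120578633 to 120589304, minus strand, GRCm38), and 67.3% of its exon bases overlap exons of *Gse1* on the other strand. Whether counting used strand is not given in the sources used here, so reads of the genes may not have been separated. *Gse1* itself was at 45.6, 15.1, 58.7, and 60.6 TPM, and whether its reads entered the *Gins2* values was not tested.

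The replication clamp gene *Pcna* was the most abundant member in every library, at 259.8, 110.7, 231.7, and 154.2 TPM. It lies on chromosome 2 from 132249162 to 132253314. *Pcna* held 22.5% of the summed TPM of all members in GFP-negative cells and 48.3% in tdTomato-positive cells, where most other members were lower. Its log2 fold change was -1.22 and -0.58 in the lines. *Pcna* also acts in DNA repair, and 19.1% of its 50-base windows occur in another gene, mostly the pseudogene *Pcna-ps2*.

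For nucleotide supply, the subunits of ribonucleotide reductase, which makes deoxynucleotides, were both lower in reporter-positive cells. *Rrm1* was at 41.5, 16.3, 29.6, and 16.1 TPM and *Rrm2*, the subunit that is periodic in the cell cycle, was at 34.4, 11.8, 21.4, and 4.12 TPM. The log2 fold changes of *Rrm2* were -1.47 and -2.13, and those of *Rrm1* were -1.30 and -0.84. *Tyms*, which encodes thymidylate synthase, was at 1.39, 4.88, 1.40, and 3.72 TPM, with the negative libraries almost equal and both positive libraries above them. At these low levels its log2 fold changes were 1.30 and 0.98.

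Cyclin E genes, which act at entry into S phase, were at low levels. *Ccne1* was at 4.43, 2.92, and 4.34 TPM and listed at 0 in tdTomato-positive cells. *Ccne2* was at 5.17, 1.55, 4.21, and 2.18 TPM, with its lowest value in GFP-positive cells. Each passed 2-fold in 1 line.

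Among the later cyclins and their partners, 4 of 6 genes (66.7%) were at least 2-fold lower in GFP-positive cells, against 44.2% of all genes, and 5 of 6 (83.3%) in tdTomato-positive cells, against 21.8%. *Ccna2*, the cyclin of S phase and G2, was at 37.1, 12.7, 33.2, and 8.11 TPM. *Ccnb1*, the main mitotic cyclin, was at 19.0, 13.9, 17.6, and 0.663 TPM, and *Ccnb2* was at 34.0, 8.89, 5.15, and 1.07 TPM. *Ccnb1* thus differed little between the first 3 libraries, and its log2 fold change was -0.43 for GFP-positive cells and -3.48 for tdTomato-positive cells. Of its 50-base windows, 23.4% also occur in another gene, mostly the pseudogene *Ccnb1-ps*. *Foxm1*, the transcription factor of late cell cycle genes, was at 10.3, 3.05, and 7.75 TPM and listed at 0 in tdTomato-positive cells, and *Cdca3*, which triggers loss of a mitotic inhibitor, was at 40.5, 14.6, 13.3, and 2.03 TPM.

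*Cdk1*, the kinase that these cyclins activate, did not follow them. It was at 9.93, 10.4, 7.75, and 11.9 TPM, a narrow range with the highest value in tdTomato-positive cells, and its log2 fold changes were 0.06 and 0.55. In tdTomato-positive cells *Cdk1* was above each of its cyclins, whereas in both negative libraries it was below *Ccna2* and *Ccnb1*. The gene lies on chromosome 10 from 69335146 to 69352938, and none of its 50-base windows occurs in another gene.

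Both chromosome proteins were lower in both lines. *Mki67*, the gene of the proliferation antigen Ki-67 (chromosome 7, 135689784 to 135716361), was at 30.5, 7.90, 23.4, and 1.56 TPM, with log2 fold changes of -1.83 and -3.26. *Top2a* was at 37.0, 16.9, 37.7, and 7.31 TPM, almost the same in the negative libraries, with log2 fold changes of -1.09 and -2.22. The summed level of the pair was 6.90-fold lower in tdTomato-positive cells and 2.73-fold lower in GFP-positive cells.

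All 6 genes of mitotic kinases and the chromosomal passenger complex, which corrects attachments of chromosomes to the spindle, were at least 2-fold lower in GFP-positive cells (44.2% of all genes), and 4 of them were in tdTomato-positive cells (21.8% of all genes). *Cdca8*, which encodes the passenger protein borealin, was at 24.7, 11.6, 23.6, and 1.20 TPM, and *Birc5*, which encodes survivin, was at 8.03, 2.41, 3.51, and 0.0346 TPM. *Plk1*, a kinase of mitotic entry, was at 17.6, 5.76, 8.36, and 3.17 TPM, and *Tpx2*, which activates Aurora A at the spindle, was at 12.5, 5.13, 12.6, and 1.58 TPM. The log2 fold change of *Cdca8* between the tdTomato libraries was -3.48, and both *Cdca8* and *Birc5* were lowest in tdTomato-positive cells.

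The Aurora kinase genes were the exceptions in this group. *Aurka*, the kinase of spindle poles, was at 19.4, 8.90, 6.62, and 5.80 TPM. *Aurkb*, the kinase of the passenger complex, was at 19.1, 4.71, 2.03, and 2.69 TPM. For both genes the GFP-negative library stood above the other 3, and tdTomato-positive and tdTomato-negative cells differed by -0.16 and 0.28 on the log2 scale.

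Genes of the spindle checkpoint and the anaphase-promoting complex had the widest gap between the lines, with a summed level 2.05-fold lower in GFP-positive cells and 9.90-fold lower in tdTomato-positive cells. *Cdc20*, the activator of the complex, was at 31.5, 20.6, 13.1, and 0.0662 TPM, and its log2 fold change was -0.59 and -3.72. *Ube2c*, whose promoter is printed above, was at 52.4, 20.5, 21.2, and 2.73 TPM. *Bub1b* was at 11.0, 5.10, 7.24, and 0.709 TPM and *Bub1*, its fellow checkpoint kinase, was at 4.97, 2.39, 2.41, and 0.940 TPM. GFP-positive cells were thus above tdTomato-negative cells for *Cdc20*, and close to them for *Ube2c* and *Bub1*. For *Cdc20*, 10.4% of 50-base windows also occur in another gene.

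At the centromere, *Cenpa*, the histone variant that marks it, was at 41.9, 5.24, 8.40, and 1.57 TPM. Its log2 fold change of -2.78 was the lowest of any member in the TAAR enhancer 1-GFP line, and it was -1.87 in the other line. *Cenpe*, a kinetochore motor, was at 3.95, 3.12, 7.33, and 1.89 TPM, and *Cenpf*, a large kinetochore protein, was at 4.26, 2.61, 3.87, and 1.15 TPM. *Cenpe* was the member with the largest excess in tdTomato-negative over GFP-negative cells, 0.75 on the log2 scale.

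The 5 spindle motors and microtubule binders were all at least 2-fold lower in tdTomato-positive cells, against 21.8% of all genes, and 3 of them were in GFP-positive cells, against 44.2% of all genes. *Kif11*, the motor that separates spindle poles, was at 13.5, 5.51, 13.6, and 3.85 TPM. *Kif20a* and *Kif23*, motors of the central spindle, were at 13.5, 6.79, 7.85, and 1.24 TPM and at 15.1, 4.57, 4.64, and 1.47 TPM. *Nusap1*, which bundles microtubules, was at 18.7, 4.81, and 13.7 TPM and listed at 0 in tdTomato-positive cells. *Hmmr*, a spindle pole protein, was at 4.11, 3.51, 2.80, and 0.0151 TPM, so that only the tdTomato-positive library stood apart.

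By their sums, S phase and mitosis members stood in another proportion in tdTomato-positive cells than in the other libraries. By their medians, both tdTomato libraries stood apart from both GFP libraries, and tdTomato-positive cells were close to tdTomato-negative cells. The summed TPM of the 15 S phase members was 620.0, 262.0, 494.8, and 256.4, and that of the 26 mitosis members was 534.6, 211.5, 308.9, and 62.7. In GFP-positive cells the sums were 2.37-fold (S phase) and 2.53-fold (mitosis) lower than in GFP-negative cells, and in tdTomato-positive cells they were 1.93-fold and 4.93-fold lower than in tdTomato-negative cells. The ratio of the mitosis sum to the S phase sum, which does not depend on the scale of a library, was 0.862, 0.807, 0.624, and 0.245. *Pcna* and *Mcm4* weigh on this ratio, which was 1.48, 1.40, 1.17, and 0.613 without *Pcna* and 1.70, 1.58, 1.32, and 0.906 without both, left out after their values had been seen. The median TPM of the mitosis members divided by that of the S phase members was 0.546, 0.551, 0.378, and 0.367, nearly the same with and without the reporter in each line. The median log2 fold changes were -1.28 (S phase) and -1.14 (mitosis) in the TAAR enhancer 1-GFP line. They were -1.67 (S phase) and -1.94 (mitosis) in the TAAR enhancer 2-tdTomato line. With tdTomato 60.0% of S phase and 84.6% of mitosis members were at least 2-fold lower, against 21.8% of all genes. With GFP these shares were 66.7% and 65.4%, against 44.2% of all genes.

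**Figure D4:**
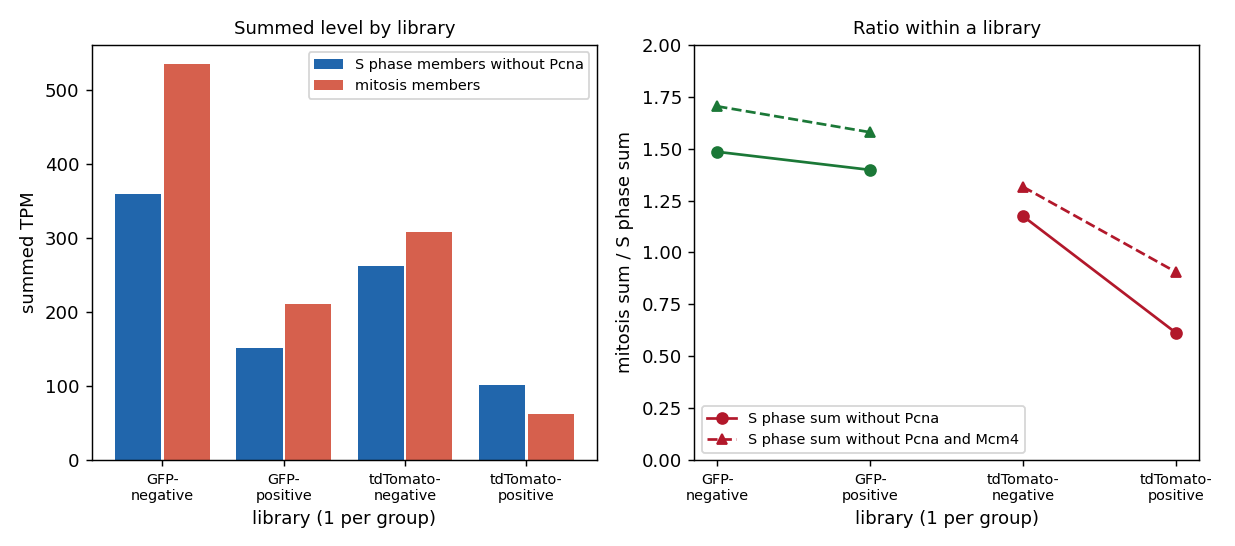
Left, summed TPM (y axis) of S phase members without *Pcna* and of mitosis members in each library (x axis). Right, the mitosis sum divided by the S phase sum within a library (y axis), which ends at 0.613 in tdTomato-positive cells without *Pcna* and at 0.906 without *Pcna* and *Mcm4*, below the other 3 libraries in both cases. The ratio of medians, not plotted, is 0.378 and 0.367 in tdTomato-negative and tdTomato-positive cells.

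Other genes of the cell cycle were taken from lists written down by function. Counts and medians here cover the genes with a mean of at least 1 TPM, as the shares of all genes do. Of 39 such other replication genes, 20 (51.3%) were at least 2-fold lower and none higher in GFP-positive cells (median log2 fold change -1.03), against 44.2% lower among all genes, and 13 (33.3%) were lower and 1 higher in tdTomato-positive cells (median -0.59), against 21.8% lower among all genes. *Orc1* was below this level. The latter median was nearer to 0 than that of the S phase members (-1.67). *Rfc2*, a clamp loader subunit and the most abundant of these genes, was at 103.3, 47.6, 104.1, and 126.7 TPM. *Tk1*, the thymidine kinase of S phase, was at 19.3, 5.65, and 17.8 TPM and listed at 0 in tdTomato-positive cells. *Dscc1*, of an alternative clamp loader, was lowest in GFP-positive cells at 4.73, 0.178, 4.92, and 6.14 TPM, and *Pold2*, a polymerase subunit, was at 22.4, 24.7, 32.6, and 20.5 TPM. *Gins1*, which works in the same complex as *Gins2*, was at 6.14, 5.001, 0, and 2.40 TPM, with its highest value in GFP-negative cells.

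Of 41 other mitosis genes, *Kif14* being below a mean of 1 TPM, 19 (46.3%) were at least 2-fold lower and 4 higher in GFP-positive cells (median -0.96), near the 44.2% of all genes that were lower, and 25 (61.0%) were lower and 4 higher in tdTomato-positive cells (median -1.27), against 21.8% lower among all genes. *Ncapg2*, a condensin subunit, was at 177.8, 24.8, 187.6, and 84.3 TPM, and *Pbk*, a mitotic kinase, was at 8.47, 12.1, and 13.5 TPM and listed at 0 in tdTomato-positive cells. *Melk*, a kinase gene of dividing cells, was the gene of this list that was most increased in both lines, at 2.32, 30.1, 0.540, and 107.1 TPM. Among genes named after their values were seen, *Nek2*, a centrosome kinase, was at 12.9, 39.1, 9.12, and 66.9 TPM, and *Ckap2l*, a spindle protein, was at 10.03, 22.3, 6.31, and 22.7 TPM. These 3 genes, like *Gins2*, *Tyms*, and *Cdk1*, were higher in both positive libraries than in both negative libraries.

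Among 14 G1 regulators and E2F genes, 3 (21.4%) were at least 2-fold lower with GFP and 1 was higher, while 44.2% of all genes were lower and 12.9% higher. In tdTomato-positive cells 7 were lower and 2 higher, against 21.8% and 15.8% of all genes. *E2f2*, an activator of S phase genes, was at 13.4, 1.14, 10.2, and 1.38 TPM. Cyclin D1, which links growth signals to the cycle, went the other way, with *Ccnd1* at 19.4, 51.8, 14.8, and 63.9 TPM, and *Cdk6*, a partner kinase, was at 2.18, 4.19, 3.94, and 30.7 TPM. *Cdk4* was the most abundant of the list, at 223.3, 149.3, 193.5, and 217.5 TPM. Of 11 genes of cell cycle exit with a mean of at least 1 TPM, 4 (36.4%) were at least 2-fold lower and 0 higher with GFP, against 44.2% and 12.9% of all genes, and 2 (18.2%) were lower and 1 higher with tdTomato, against 21.8% and 15.8% of all genes. *Cdkn2a* and *Cdkn2b* were below this level. *Cdkn2d*, an inhibitor of cyclin D kinases, was at 103.6, 9.56, 65.5, and 20.2 TPM, *Cdkn1c* was at 4.67, 5.87, 1.69, and 12.1 TPM, *Cdkn2b* was listed at 0 in both negative libraries and at 1.34 and 2.33 TPM in the positive libraries, and *Cdkn1a*, the most abundant, was at 198.5, 107.2, 234.8, and 155.1 TPM.

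Lymphocyte, myeloid, and OSN markers were mostly lower in the reporter-positive libraries, as the members were. Bowman gland and multiciliated cell markers were higher there, and the remaining lists were mixed. The part of any cell type in the result was not tested. Lymphocyte markers summed to 781.0, 3.15, 354.3, and 9.69 TPM. All 10 genes of at least 1 TPM on average were 2-fold or more lower in GFP-positive cells and 8 of 10 in tdTomato-positive cells. Among all genes 44.2% and 21.8% were lower and 12.9% and 15.8% higher, and these shares also stand beside the myeloid and erythroid counts. Myeloid markers summed to 11973, 3842, 3398, and 2051 TPM, with 10 and 8 of 12 genes at least 2-fold lower and 1 higher in each line (median log2 fold change -5.25 and -2.50). Most of the sum in the positive libraries came from *Lyz2*, the lysozyme gene, at 1581, 2043, 706.7, and 1707 TPM, and *Ltf*, the lactoferrin gene, at 665.3, 1691, 496.0, and 286.2 TPM. *Ltf* was the gene at least 2-fold higher with GFP (1.34 on the log2 scale) and *Lyz2* that with tdTomato (1.27), so the sums show less of a fall than most genes of the list. *Ptprc*, the gene of the pan-leukocyte protein CD45, was at 178.3, 3.14, 194.0, and 1.42 TPM. Erythroid markers summed to 123.1, 5.16, 32.4, and 10.9 TPM, and 5 of the 8 genes had a mean of at least 1 TPM. All 5 were at least 2-fold lower in GFP-positive cells, and 2 of them in tdTomato-positive cells. Of the other 3, *Hba-a1* and *Hbb-bs* were listed at 0 in all 4 libraries and *Epor* was at 1.62 TPM in tdTomato-positive cells and listed at 0 elsewhere. All 3 sums were highest in GFP-negative cells, as were 33 of the 41 members and 30.3% of all genes. Genes of blood cell precursors, chosen after their values were seen, included *Dntt* at 13.8, 0, 0.0321, and 0 TPM and *Mpo* at 40.7, 0, 2.04, and 0.0232 TPM. *Elane* was at 33.7 TPM in GFP-negative cells and listed at 0 in the other 3 libraries. *Cd3e* (26.9 TPM in GFP-negative and 46.9 TPM in tdTomato-negative cells) and *Cd3g* (66.8 and 103.6 TPM) went the other way, as did *Ptprc*.

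The markers of globose basal cells and neuronal precursors, the dividing cells of the epithelium, did not move as 1 group. Their summed level was 322.8, 246.6, 248.4, and 289.2 TPM. With GFP, 4 of the 9 genes (44.4%) were at least 2-fold lower, a share close to the 44.2% of all genes. Another 3 rose at least 2-fold, which 12.9% of all genes did. With tdTomato, 5 of the 9 (55.6%) fell by this limit, while 21.8% of all genes did. The number that rose there was 1, and 15.8% of all genes rose. *Neurod1*, a factor of late neuronal precursors, was at 58.1, 4.29, 44.5, and 5.52 TPM, and *Neurog1*, which precedes it, was at 4.34, 1.12, and 3.94 TPM and listed at 0 in tdTomato-positive cells. *Kit*, a receptor gene of such precursors, differed by 1.23 (GFP) and -0.47 (tdTomato) on the log2 scale. *Sox2*, which supporting cells express as well, was at 14.4, 108.3, 17.2, and 148.5 TPM and makes up much of the sum in positive cells. Without *Sox2*, left out after its values had been seen, the other 8 genes summed to 308.4, 138.3, 231.3, and 140.7 TPM, 2.23-fold and 1.64-fold lower in the positive libraries.

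Horizontal basal cell markers differed between the lines. They summed to 63.0, 629.2, 151.6, and 29.1 TPM, with 4 of 5 at least 2-fold higher in GFP-positive cells and all 5 lower in tdTomato-positive cells. Shares of all genes, to be set beside each count here, were 44.2% lower and 12.9% higher with GFP. With tdTomato they were 21.8% lower and 15.8% higher. *Krt5* was at 15.7, 199.6, 56.5, and 16.5 TPM and *Trp63*, the p63 gene, was at 3.70, 20.2, 6.98, and 1.92 TPM. Immature OSN markers, with *Gap43* at 471.2, 107.6, 302.2, and 199.6 TPM, were lower in both lines, and the difference was at least 2-fold for 7 of 7 genes in GFP-positive cells and for 3 of 7 in tdTomato-positive cells. Mature OSN markers were at least 2-fold lower in 12 and 7 of 12 genes. Sustentacular cell markers summed to 1437, 13676, 2456, and 12931 TPM, with 7 of 7 genes at least 2-fold higher in GFP-positive cells but 3 higher and 2 lower in tdTomato-positive cells. Bowman gland markers summed to 2356, 112059, 6874, and 55432 TPM, and endothelial and stromal markers to 71.0, 75.9, 48.6, and 9.91 TPM. Of the 5 endothelial and stromal genes with a mean of at least 1 TPM, 2 were at least 2-fold lower and 2 higher in GFP-positive cells, and 1 was lower in tdTomato-positive cells. *Pecam1*, an endothelial adhesion gene, differed by -4.33 (GFP) and -2.52 (tdTomato) on the log2 scale. *Cdh5*, at 0.0622, 0, 1.79, and 0 TPM, and *Kdr*, at 1.86, 0.350, 0.0377, and 0.0217 TPM, were the genes below this level. The collagen genes differed, with *Col1a1* at 6.31, 30.2, 1.12, and 0.604 TPM and *Col1a2* at 11.7, 42.9, 2.14, and 0.977 TPM. *Col3a1* was at 8.86, 0.489, 0.0615, and 0 TPM.

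Multiciliated cell markers were at least 2-fold higher in 8 of 9 genes in GFP-positive cells and in 9 of 9 in tdTomato-positive cells, against 12.9% and 15.8% of all genes. Their sums were 364.3, 2173, 392.7, and 7548 TPM. *Foxj1*, the factor of motile cilia, was at 126.3, 302.2, 114.3, and 975.5 TPM. Centriole amplification builds the many basal bodies of such cells with some of the machinery of mitosis. Its genes were at least 2-fold higher in 5 and lower in 2 of 9 in GFP-positive cells, against 12.9% and 44.2% of all genes. By the same limit 4 were higher and 4 lower in tdTomato-positive cells, against 15.8% and 21.8% of all genes. Their sums were 89.3, 201.2, 99.0, and 385.2 TPM. *Ccdc78* was at 98.2 and 296.8 TPM in GFP-positive and tdTomato-positive cells and *Stil*, a centriole gene that dividing cells also use, was at 18.7, 7.55, 22.3, and 2.59 TPM.

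**Figure D5:**
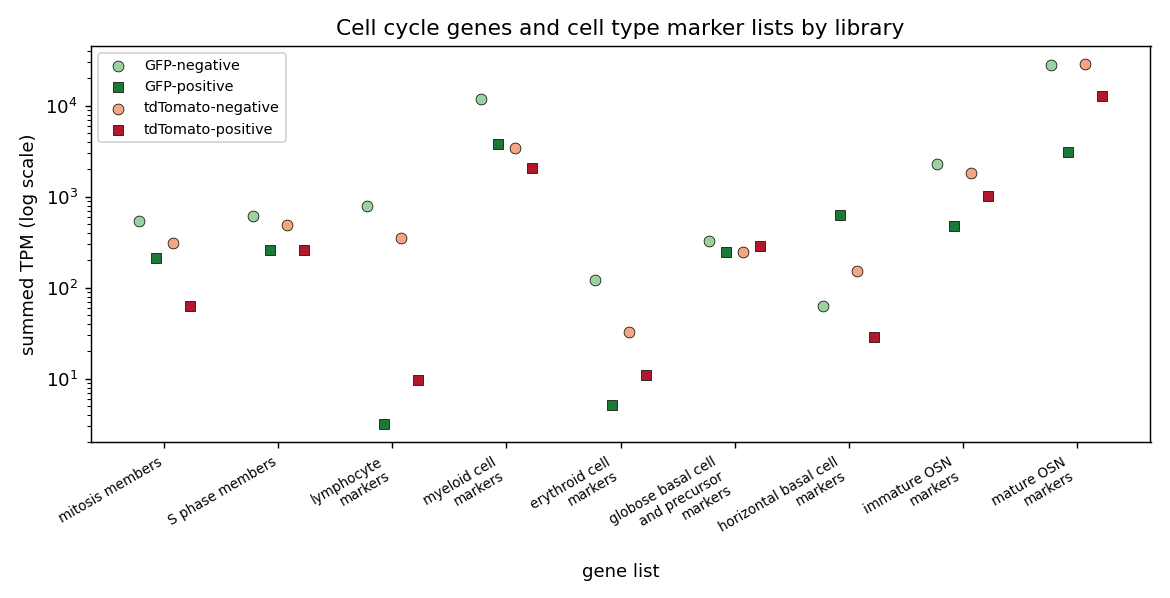
Summed TPM (y axis, log scale) of the mitosis and S phase members and of 7 cell type marker lists (x axis), 1 point for each library. Lymphocyte sums are 781.0 and 354.3 in the negative libraries and 3.15 and 9.69 in the positive libraries, while the precursor list is between 246.6 and 322.8 with *Sox2*, and at 308.4, 138.3, 231.3, and 140.7 without it (not plotted).

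Across the 41 members, the levels in the negative libraries were the most alike, with a Pearson correlation of log2(TPM + 1) of 0.86. It was 0.78 for GFP-negative and GFP-positive cells, 0.57 for tdTomato-negative and tdTomato-positive cells, and 0.74 for the positive libraries. These are correlations across genes, which share a library and are not replicates. The order of the members was thus kept better in GFP-positive cells than in tdTomato-positive cells, where *Pcna*, *Mcm4*, *Mcm7*, *Rrm1*, and *Cdk1* were the 5 members at 10 TPM or more.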

How the data were processed

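RNA-seq was done on cells sorted by fluorescence from the MOE. The authors deposited 1 table of TPM values for genes named by symbol, with 1 column for each of the 4 libraries. The submitters' processing notes name Trimmomatic 0.36, Salmon 1.4.0, and mm10, the methods name Hisat2, Cufflinks, and featureCounts, and which of these gave the TPM values, the annotation, and the strand of counting are not given in the sources used here. The labels name Vazyme kits, while the methods name RNeasy and the Smart-seq2 procedure. TPM keeps no depth, so intervals and detection limits were not calculated.

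Members were found by symbol. Differences of log2(TPM + 1) were calculated with Python 3.11.15, pandas 2.3.3, and NumPy 2.4.6 for genes with a mean of at least 1 TPM, and the steps were tested on simulated data. Calls are 2-fold differences and have no test, as each group has 1 library. The members and lists were chosen with earlier results of these data known. All 41 members are named, and of the other cell cycle lists the most abundant gene and the genes that changed most in a line. Cell type marker lists are given by counts, sums, and defining markers. Where a list gene is named outside this rule, it was chosen after its values were seen. Gene positions, exon overlaps on either strand, and shared 50-base windows of transcripts are from GENCODE M21 (GRCm38), and promoters are from RefSeq (GRCm38.p6). Alternatives were pseudocounts of 0.1 and 10, a minimum of 5 TPM, a 4-fold limit, and other scalings.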

Additional observations from a re-analysis of the deposited data

Results flagged for a closer look

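*Mcm4* and *Aurkb* went in opposite directions in the lines. The log2 fold change of *Mcm4* was -1.36 for the TAAR enhancer 1-GFP line but 0.22 for the TAAR enhancer 2-tdTomato line, a difference of 1.58. That of *Aurkb* was -1.82 and 0.28, a difference of 2.10. With the negative library of the other line *Mcm4* was lower in both (-0.67 and -0.47), and *Aurkb* went in opposite directions with the signs exchanged (0.92 and -2.45). For the 5 horizontal basal cell markers the median log2 fold change was 2.90 and -2.04, a difference of -4.94. With 1 library for each group these differences were not tested.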

How the results depend on the processing

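In the TAAR enhancer 1-GFP line the median log2 fold change of the members stayed below 0 but was -0.64 with a pseudocount of 10 and -0.37 with median-ratio scaling over 11943 genes, which moved the all-gene median by 0.81. The 27 lower members became 12, 6, 15, and 2 with a pseudocount of 10, median-ratio scaling, rescaling without the 24 highest genes, and a 4-fold limit, and the 2 higher members became 0 with a pseudocount of 10, 0 with a mean of at least 5 TPM, and 1 at 4-fold. In the TAAR enhancer 2-tdTomato line a pseudocount of 10 gave a median of -0.67, 14 lower members, and 0 higher members, and 16 members passed 4-fold, while median-ratio scaling kept the count of 31. The 1 higher member of this line became 2 with a pseudocount of 0.1, median-ratio scaling, or rescaling without the highest genes, and 0 with a mean of at least 5 TPM. Between the negative libraries the 11 lower members became 5 with a pseudocount of 10 and 3 at 4-fold.

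Further settings were chosen after seeing the data. With the negative library of the other line, the TAAR enhancer 1-GFP line gave a median of -0.59 and 12 lower members, and *Ccnb2* (0.68), *Cdca3* (0.12), *Aurka* (0.38), *Aurkb* (0.92), *Cdc20* (0.62), and *Hmmr* (0.25) were then higher in GFP-positive cells. The TAAR enhancer 2-tdTomato line gave 34 lower members with the other negative library, and *Mcm4* (-0.47) and *Aurkb* (-2.45) were then lower in tdTomato-positive cells. Less the all-gene median, the TAAR enhancer 1-GFP line gave -0.37 and 3 lower members, and the TAAR enhancer 2-tdTomato line gave 28 lower and 2 higher members. Without members listed at 0, the latter had 26 lower and 0 higher members. The cause of these changes was not tested beyond the construction of each setting. Within a line no paired analysis was possible because the labels give no replicate numbers and there is only 1 library in a group. A fit that takes the lines as 2 replicates of 1 contrast was not run, since they differ in enhancer and reporter.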
